A study of Mus musculus with 12 samples.

Results

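The respiratory chain subunits that are encoded in the nucleus and made in the cytosol were followed at the RNA level in C2C12, a mouse myoblast cell line that fuses into myotubes when serum is lowered. Genes were taken by name: the Nduf a, b, c, s and v genes for complex I, Sdha to Sdhd for complex II, Uqcr genes for complex III, the Cox4 to Cox8 genes except Cox6a2 for complex IV and Atp5 genes for complex V, without pseudogene names and with at least 10 counts summed over 12 libraries. Of the 21232 genes in the deposited table, 81 met this rule. A further 2 names matched and fell short of 10 counts, namely Cox4i2 with 9 counts and Cox8c with 0. Complex I had 37 of the genes, complex II 4, complex III 8, complex IV 15 and complex V 17. The names are a guide and not a list of structural subunits. Ndufa4 is named for complex I but is now regarded as a complex IV subunit, Atp5s and Atp5sl are not core subunits of the ATP synthase, and Ndufab1 lies outside the name pattern. The expression filter was passed by 78 of the 81 genes. Those that did not pass were Cox6b2 with 13 counts over all libraries, Cox7b2 with 23 and Ndufa4l2 with 29.

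The respiratory chain passes electrons from NADH (complex I) and succinate (complex II) through complex III to complex IV, which reduces oxygen, and complex V uses the resulting proton gradient to make ATP. Complexes I, III, IV and V are each assembled from many nuclear-encoded subunits and a few encoded in mitochondrial DNA (mtDNA), while complex II is wholly nuclear-encoded. Skeletal muscle is rich in mitochondria, and several complex IV subunits, among them those of the Cox7a and Cox8 families, exist as a widely expressed form and a form found mainly in heart and muscle.

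There were 4 groups of 3 libraries, with replicates named A, B and C. The TNF group was differentiated for 48 h with the inflammatory cytokine TNF at 10 ng/ml, the Fbxl2 siRNA group was taken at 48 h of differentiation after silencing of Fbxl2, which encodes a substrate-binding subunit of an SCF ubiquitin ligase, the control group was taken at 48 h of differentiation, and the proliferation group consisted of dividing myoblasts at 0 h. All cells were C2C12, with C57BL/6 given as the strain, and low horse serum replaced fetal serum at confluence to start differentiation. No label mentions a non-targeting siRNA in the TNF or control cells. Nor do labels tie replicates to separate cultures, so each p-value speaks for the spread among libraries alone, which could be technical. The design, in a series titled for TNF and the Fbxl2 promoter, asks how subunit transcripts changed with differentiation, and how TNF or Fbxl2 silencing altered them.

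Library totals ran from 26416978 to 32917763 counts, and the 81 genes took 0.769% to 1.19% of a library. Fbxl2 averaged 22.2 ± 1.52 CPM (counts scaled to a common library size) in Fbxl2 siRNA cells and 32.9 ± 1.30 CPM in control cells (SD, n = 3 each), a level of 67.5% of control with an edgeR adjusted p of 1.67e-07. Summed CPM of 7 skeletal muscle lineage markers ran from 1058 to 1101 in TNF, 1670 to 1894 in Fbxl2 siRNA, 2412 to 2656 in control and 1181 to 1304 in proliferation libraries. Des, a muscle intermediate filament gene, made up most of this sum except in control. In TNF over proliferation Des, Myod1 and Myf5 fell, whereas the differentiation markers Myog, Myh3, Tnnt1 and Ckm rose, with Myog at 79.9 CPM in TNF and 22.5 CPM in proliferation. All 7 fell in TNF over control, and in Fbxl2 siRNA over control 5 fell and Myf5 rose by 0.48 on the log2 scale. Summed CPM of 5 fibroblast markers ran from 153 to 166, 394 to 467, 503 to 533 and 43.0 to 53.8 in the same order of groups, with Dcn, which muscle cells can also express, as the most abundant. Single fibroblast markers did not all follow this sum. In Fbxl2 siRNA over control Dcn fell by 0.31 on the log2 scale while Dpt, Lum and Pi16 rose by 1.18, 0.78 and 0.56, and in TNF over control Dcn, Lum and Pi16 fell while Pdgfra rose by 1.04. Adipocyte, brown adipocyte and neuron markers summed to 0.279 CPM or less in every library, with Cidec, Snap25 and the macrophage gene Adgre1 at 0 throughout. Macrophage markers summed to 2.77 CPM or less, endothelial markers to 2.63 CPM or less and cardiomyocyte markers to 0.689 CPM or less. The muscle and fibroblast sums moved with the groups, and their part in the results below was not tested. In RNA from whole cultures, fewer cells of a type and less RNA per cell cannot be told apart.

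The promoters of 5 genes on which the results turn are shown, since 4 of these genes moved together and the fifth moved the other way. RefSeq promoter entries (build GRCm38.p6, 250 bases before to 50 bases after the start) were found for 66 of the 81 genes. Shown 5′ to 3′ on the gene's strand are Sdhb (chr4:140961021-140961320, plus strand), Atp5b (chr10:128083057-128083356, plus strand), Ndufb8 (chr19:44555393-44555692, minus strand) and Cox5a (chr9:57520982-57521281, plus strand), which were lower in control than in proliferation. The last is Cox8b (chr7:140900397-140900696, minus strand), a muscle isoform that was higher. Capitals mark matches, on either strand, to letters associated with known factors. These were GCATGCGC for the nuclear respiratory factor NRF1 and CCGGAAG for ETS factors such as GABPA. Also marked were AAGATGGC for the factor YY1 and GGGCGG for the factor SP1, which is named in the title of the series. The letters AAGGTCA stand for estrogen-related receptors, while CAGCTG is an E-box of the kind bound by myogenic factors. Last came TATAAA for the core promoter element of that name, and finally the promoter box known as CCAAT. Neighbouring matches can run together.
Sdhb: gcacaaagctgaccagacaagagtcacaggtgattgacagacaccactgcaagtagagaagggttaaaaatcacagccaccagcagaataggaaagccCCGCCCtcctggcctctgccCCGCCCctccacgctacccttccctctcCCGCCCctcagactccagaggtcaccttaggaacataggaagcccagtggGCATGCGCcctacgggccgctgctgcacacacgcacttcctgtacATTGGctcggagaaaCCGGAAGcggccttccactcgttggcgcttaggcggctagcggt
Atp5b: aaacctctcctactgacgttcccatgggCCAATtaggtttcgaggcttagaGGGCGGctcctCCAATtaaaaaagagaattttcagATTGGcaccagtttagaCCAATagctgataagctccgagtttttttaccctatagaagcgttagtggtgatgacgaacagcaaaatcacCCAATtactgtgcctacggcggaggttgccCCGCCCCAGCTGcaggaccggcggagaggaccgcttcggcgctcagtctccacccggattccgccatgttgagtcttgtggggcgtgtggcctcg
Ndufb8: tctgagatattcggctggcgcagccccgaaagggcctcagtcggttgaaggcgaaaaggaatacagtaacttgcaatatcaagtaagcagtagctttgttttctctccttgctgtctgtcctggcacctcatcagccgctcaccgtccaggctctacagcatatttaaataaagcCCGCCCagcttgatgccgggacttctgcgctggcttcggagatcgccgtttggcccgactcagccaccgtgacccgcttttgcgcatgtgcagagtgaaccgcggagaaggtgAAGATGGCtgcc
Cox5a: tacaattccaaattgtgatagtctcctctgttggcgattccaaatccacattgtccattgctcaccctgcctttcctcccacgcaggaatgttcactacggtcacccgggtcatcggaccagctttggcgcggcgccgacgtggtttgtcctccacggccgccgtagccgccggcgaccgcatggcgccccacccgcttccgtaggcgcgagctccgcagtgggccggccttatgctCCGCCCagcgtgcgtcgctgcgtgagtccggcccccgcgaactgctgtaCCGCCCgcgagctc
Cox8b: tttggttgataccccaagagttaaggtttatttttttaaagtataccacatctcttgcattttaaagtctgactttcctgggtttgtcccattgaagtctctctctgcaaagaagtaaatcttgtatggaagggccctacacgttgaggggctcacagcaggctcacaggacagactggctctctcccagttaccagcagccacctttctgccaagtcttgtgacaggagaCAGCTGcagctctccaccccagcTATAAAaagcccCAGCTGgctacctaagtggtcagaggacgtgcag

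Sdhb held 1 NRF1 match, 1 ETS match, 3 SP1 matches and 1 CCAAT match in this window. Atp5b held 5 CCAAT matches, 2 SP1 matches and 1 E-box, and Ndufb8 held 1 YY1 match and 1 SP1 match. Cox5a held 2 SP1 matches, and Cox8b held 2 E-boxes and 1 TATA match with no SP1 match. The 66 genes with an entry had 71 promoters. Of these promoters, 14.1% had the NRF1 letters in a window of this length, against 2.71% of all 32851 RefSeq promoters in the table. The ETS letters were in 22.5% of the 71 promoters against 8.86% of all promoters, the YY1 letters in 12.7% against 2.75%, and the estrogen-related receptor letters in 11.3% against 4.72%. The SP1 letters were in 39.4% against 35.7%, CCAAT in 43.9% against 37.4%, TATAAA in 10.6% against 13.6% and the E-box in 9.09% against 16.3%. These are counts of letters in a window, with no test, and a match is not a bound site.

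Most subunit transcripts were highest in proliferating cells, intermediate after Fbxl2 silencing and lowest in TNF and control cells. Summed over the 81 genes, levels averaged 8140 ± 208 CPM in TNF, 9994 ± 470 CPM in Fbxl2 siRNA, 8231 ± 34.4 CPM in control and 11526 ± 454 CPM in proliferation (SD, n = 3 each). TNF, Fbxl2 siRNA and control thus stood at 70.6%, 86.7% and 71.4% of proliferation. Proliferation libraries were highest with no overlap, Fbxl2 siRNA libraries came next with no overlap, and TNF and control libraries overlapped. Of the 78 genes that passed the filter, 27 had group means in the order proliferation, Fbxl2 siRNA, TNF, control, and 26 in the same order with control above TNF. Proliferation held the highest mean for 56 genes and Fbxl2 siRNA for 18. The lowest mean was in TNF for 36 and in control for 34. Between the neighbours TNF and control, 63 of the 78 genes were not called different.

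**Figure D1:**
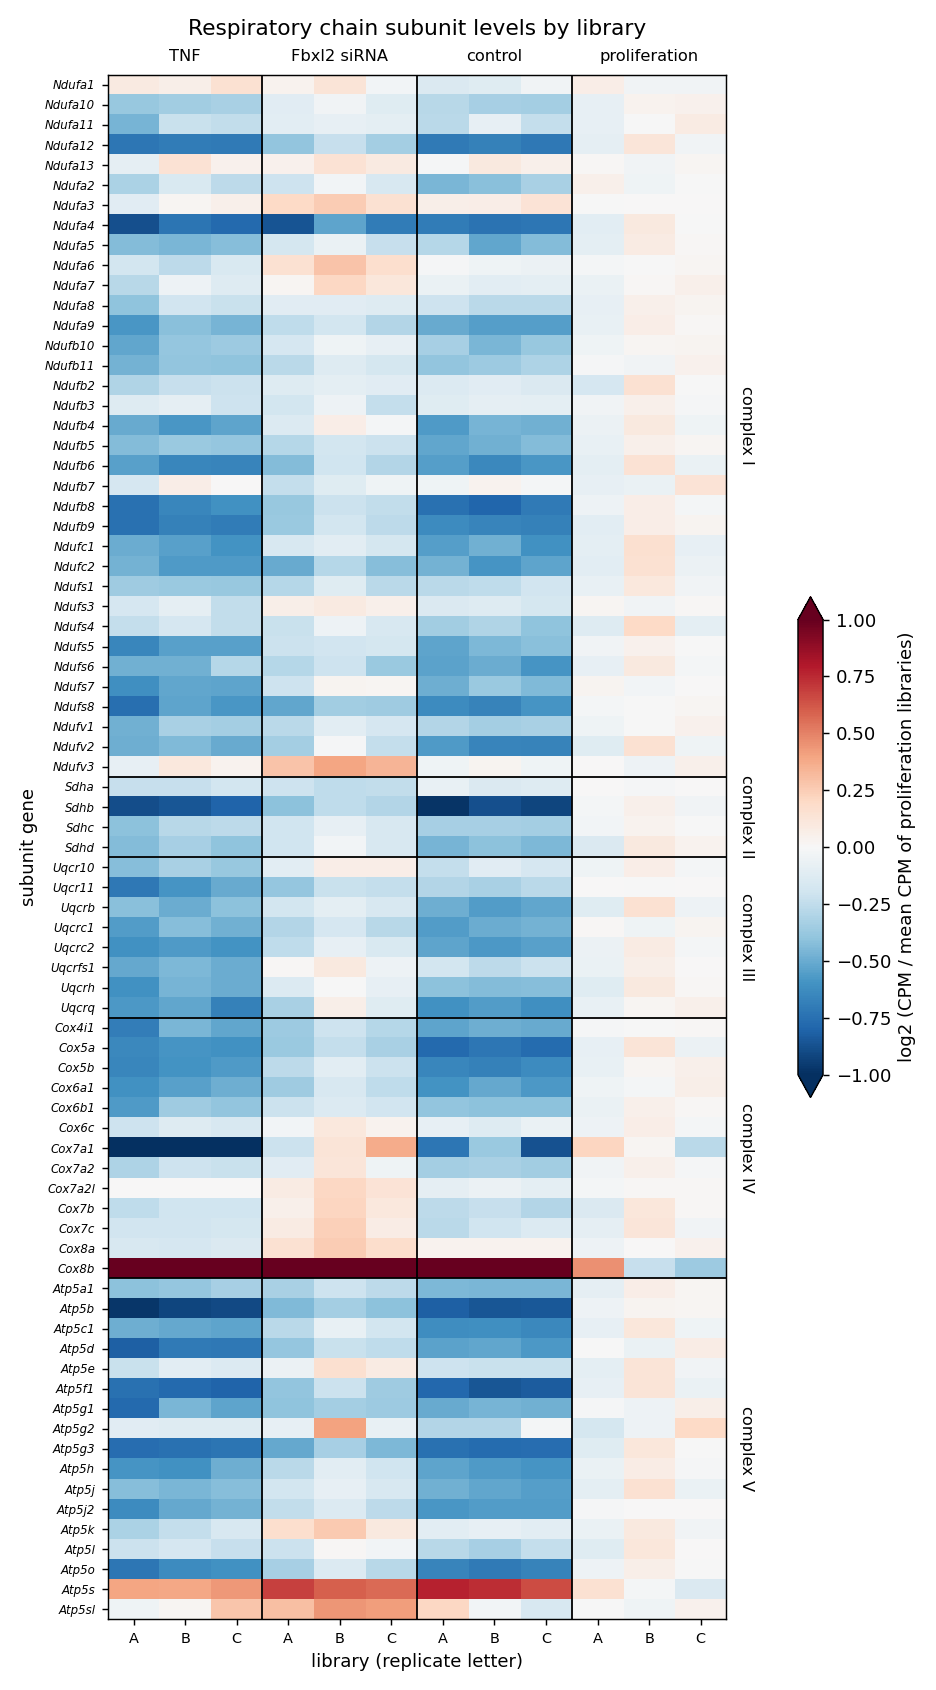
Level of 77 subunit genes that passed the filter (rows, by complex) in each of the 12 libraries (columns A to C of TNF, Fbxl2 siRNA, control and proliferation), as log2 of CPM over the mean of the proliferation libraries, with colours ending at -1 and 1. Most rows are blue in TNF and control and paler in Fbxl2 siRNA, while Atp5s and Cox8b are red in all 3 groups at 48 h.

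Most subunit transcripts of all 5 complexes were lower in differentiated control cells than in proliferating ones. In control over proliferation, 60 of the 78 tested genes fell and 3 rose, with a median log2 fold change of -0.41. Of all 12736 genes tested, 38.9% were called lower and 38.4% higher, with a median of 0.00. A call needed an adjusted p under 0.05 in edgeR's quasi-likelihood test. The tested subunit genes had a median level of 84.8 CPM against 31.7 CPM for all genes tested, and more counts make small changes easier to call. In complex I, 26 of 36 fell and 1 rose, in complex II 4 of 4 fell, in complex III 8 of 8 fell, in complex IV 9 of 13 fell and 1 rose, and in complex V 13 of 17 fell and 1 rose. The median was -0.37 for complex I, -0.39 for complex II, -0.47 for complex III, -0.34 for complex IV and -0.51 for complex V.

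Sdhb, the iron-sulfur subunit of complex II (chr4:140961203-140979193, plus strand, GRCm38), had the lowest adjusted p of the 78. It had 60.5, 64.7 and 63.2 CPM in control libraries, against 117, 124 and 117 CPM in proliferation libraries. All control libraries lay far below all proliferation libraries. The log2 fold change was -0.93 (SE 0.050, edgeR adjusted p = 5.97e-13), a level of 52.7%. Atp5b, the catalytic beta subunit of the ATP synthase (chr10:128083273-128090391, plus strand), had 1309, 1278 and 1286 CPM in control libraries, against 2235, 2358 and 2337 CPM in proliferation libraries. The groups were again well apart, and the log2 fold change was -0.84 (SE 0.046, edgeR adjusted p = 7.14e-13). Atp5f1, a subunit of the peripheral stalk, fell by 0.82 on the log2 scale (SE 0.057, edgeR adjusted p = 3.62e-11).

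Ndufb8, an accessory subunit of the membrane arm of complex I (chr19:44548572-44555440, minus strand), showed the largest fall in that complex. It had 67.2, 65.0 and 69.1 CPM in control libraries, against 109, 118 and 111 CPM in proliferation libraries. The libraries did not overlap, and the log2 fold change was -0.75 (SE 0.053, edgeR adjusted p = 5.28e-11). Cox5a, a structural subunit of complex IV (chr9:57521274-57532426, plus strand), had 82.5, 85.7 and 82.9 CPM in control libraries, against 133, 155 and 136 CPM in proliferation libraries. It fell by 0.76 on the log2 scale (SE 0.054, edgeR adjusted p = 5.87e-11). Uqcrq, a small subunit of complex III (chr11:53427922-53430831, minus strand), averaged 40.3 ± 0.781 CPM in control and 60.6 ± 2.62 CPM in proliferation, with a log2 fold change of -0.59. Of the other complex II subunits, the membrane anchors Sdhd and Sdhc fell by 0.44 and 0.34 and the flavoprotein Sdha by 0.12 on the log2 scale. The call for Sdha (edgeR adjusted p = 0.0147) was lost without control replicate B (adjusted p = 0.0844) or C (0.0613) and with no filter on low counts (0.111).

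Genes that rose against this trend were few. Atp5s averaged 8.79 ± 0.366 CPM in control and 5.33 ± 0.549 CPM in proliferation, with a log2 fold change of 0.72 (edgeR adjusted p = 3.37e-07). Cox8b also rose and is described with the muscle isoforms below.

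Counting could have moved some of these values. Exon bases were shared with another GENCODE gene by 26 of the 81 genes, and 6 genes had a copy elsewhere with at least 95% identity over at least 50% of the transcript, so reads of Atp5l, Atp5h, Uqcrb, Ndufs3, Ndufb11 and Atp5k are uncertain. Among the 50 tested genes with neither, 39 fell and 2 rose in control over proliferation, with a median of -0.40.

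**Figure D2:**
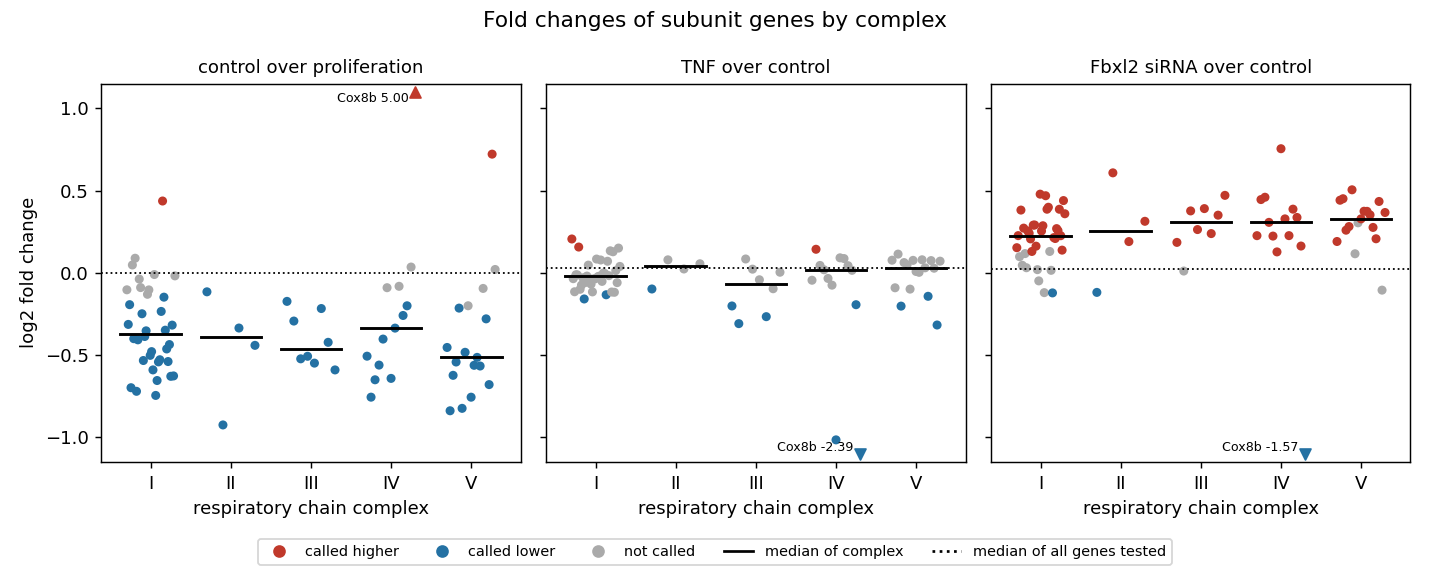
Log2 fold change (vertical axis) of each tested subunit gene, grouped by complex (horizontal axis), for control over proliferation, TNF over control and Fbxl2 siRNA over control, in red where called higher, blue where called lower and grey where not called, with values past 1.1 drawn as triangles at the edge. Medians of the complexes lie between -0.51 and -0.34 in the first panel, between -0.07 and 0.04 in the second and between 0.23 and 0.33 in the third.

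Most subunit transcripts were near the control level in TNF-treated cells. In TNF over control, 12 of the 78 tested genes fell and 3 rose, with a median log2 fold change of -0.01 against 0.03 for all genes, and 55 of the 78 lay within 0.1 of 0. Of all genes tested, 23.6% were called lower and 31% higher, so both shares of the subunit genes lay below the background. With library totals in place of the TMM factors, 22 fell and 1 rose, and the median was -0.07. With the TMM factors but without TNF replicate A, the median was 0.02. A change that misses the threshold is not shown to be absent. The genes that fell were Ndufa6 and Ndufs1 of complex I, Sdha of complex II, Uqcr10, Uqcr11 and Uqcrfs1 of complex III, Cox7a1, Cox8a and Cox8b of complex IV, and Atp5d, Atp5k and Atp5s of complex V. Those that rose were Ndufa1, Ndufa2 and Cox5a.

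Uqcr11, a small subunit of complex III, had 42.6, 46.6 and 49.4 CPM in TNF libraries, against 57.3, 56.1 and 58.2 CPM in control libraries. All TNF libraries were lower, with a log2 fold change of -0.31 (SE 0.056, edgeR adjusted p = 7.73e-05). Uqcrfs1, the Rieske iron-sulfur protein that carries electrons within complex III, had 83.0, 86.9 and 84.2 CPM in TNF libraries, against 104, 99.0 and 102 CPM in control libraries. It fell by 0.27 on the log2 scale (SE 0.049, edgeR adjusted p = 8.78e-05), again with no overlap. Ndufa6 fell by 0.16 and Atp5s by 0.32 on the log2 scale (edgeR adjusted p = 0.0084 and 0.00393). Ndufa1 averaged 31.0 ± 1.03 CPM in TNF and 26.9 ± 1.07 CPM in control, a rise of 0.21 on the log2 scale (edgeR adjusted p = 0.00506).

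Calls near the threshold were less stable. Cox5a averaged 92.4 ± 1.81 CPM in TNF and 83.7 ± 1.72 CPM in control, with a log2 fold change of 0.14 (edgeR adjusted p = 0.0315). This call was lost without control replicate A (adjusted p = 0.0920), B (0.0513) or C (0.0967), without TNF replicate B (0.0997) or C (0.0748), and with library totals (0.174), relative log expression factors (0.0537), no filter (0.0900) or DESeq2 (0.0632). Sdha had a log2 fold change of -0.10 (edgeR adjusted p = 0.0482). Its call was lost in 9 of the 12 fits that left out a library, with adjusted p between 0.0529 and 0.198 in those: any TNF replicate, any control replicate, Fbxl2 siRNA replicate A or C, or proliferation replicate C. Sdhb, Sdhc and Sdhd had log2 fold changes of 0.08, 0.02 and 0.05 and were not called.

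Subunit transcripts of all 5 complexes were higher in Fbxl2-silenced cells than in control cells. In Fbxl2 siRNA over control, 62 of the 78 tested genes rose and 3 fell, with a median log2 fold change of 0.26 against 0.03 for all genes. Of all genes tested, 34.1% were called higher and 29.8% lower. In complex I, 26 of 36 rose and 1 fell, in complex II 3 of 4 rose and 1 fell, in complex III 7 of 8 rose, in complex IV 12 of 13 rose and 1 fell, and in complex V 14 of 17 rose. Among the 50 genes without a shared exon or a near copy, 41 rose and 2 fell. The same control libraries enter this comparison and both of those above.

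Sdhb had 89.6, 100 and 97.1 CPM in Fbxl2 siRNA libraries, against the 60.5, 64.7 and 63.2 CPM in control libraries. All siRNA libraries were higher, with a log2 fold change of 0.61 (SE 0.050, edgeR adjusted p = 1.68e-09). Atp5b had 1700, 1821 and 1739 CPM in Fbxl2 siRNA libraries, against 1309, 1278 and 1286 CPM in control libraries. It rose by 0.44 on the log2 scale (SE 0.045, edgeR adjusted p = 4.46e-08), with no overlap. Cox5b, a zinc-binding subunit of complex IV, averaged 105 ± 5.69 CPM in Fbxl2 siRNA and 76.5 ± 1.31 CPM in control, a rise of 0.46 on the log2 scale (edgeR adjusted p = 7.26e-08). Atp5f1 rose by 0.50, Ndufb4, an accessory subunit of complex I, by 0.48 and Uqcrq by 0.47 on the log2 scale, each the largest rise of its complex among called genes (edgeR adjusted p = 1.63e-07, 5.31e-07 and 1.16e-05).

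Within complex II, Sdhc rose by 0.19 and Sdhd by 0.31 on the log2 scale, while Sdha fell by 0.12 (edgeR adjusted p = 0.00157, 8.05e-05 and 0.0157). The catalytic Sdha averaged 240 ± 3.98 CPM in Fbxl2 siRNA and 261 ± 6.71 CPM in control. Its call was lost without control replicate A (adjusted p = 0.0874) or Fbxl2 siRNA replicate C (0.0548). Without either of these libraries, Cox8b was the only gene of the 78 called lower.

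**Figure D3:**
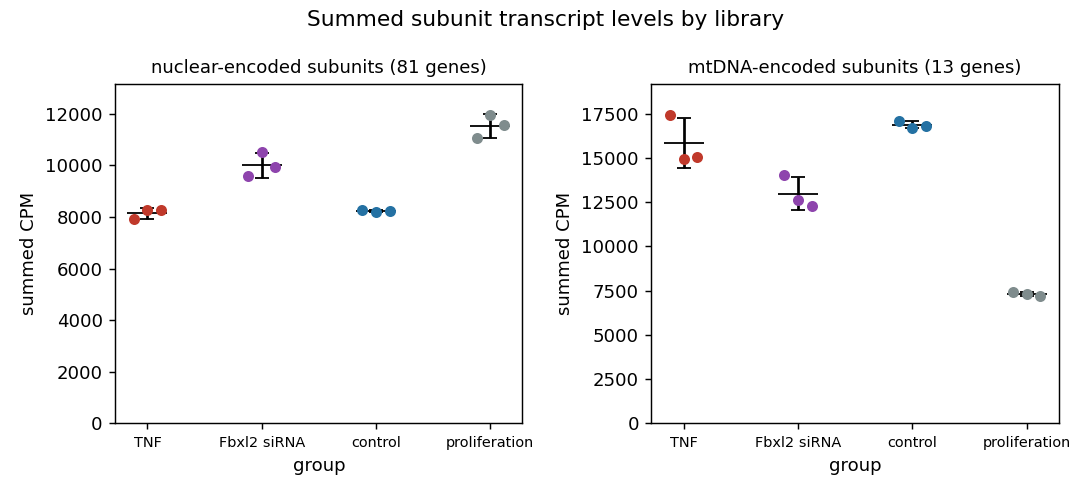
Summed CPM (vertical axes, from 0) of the 81 nuclear-encoded subunit genes and of the 13 mtDNA-encoded subunit genes in each library of TNF, Fbxl2 siRNA, control and proliferation (points), with bars for the mean and SD of 3 libraries. The nuclear-encoded sum is highest in proliferation at 11526 CPM and lowest in TNF at 8140 CPM, whereas the mtDNA-encoded sum is lowest in proliferation at 7316 CPM and highest in control at 16869 CPM.

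Subunit transcripts were lower in TNF-treated than in Fbxl2-silenced cells. In TNF over Fbxl2 siRNA, 63 of the 78 tested genes fell and 1 rose, with a median log2 fold change of -0.29. Of all genes tested, 30.6% were called lower and 29.9% higher. In complexes III and IV every tested gene fell, 8 and 13 in number, as did 25 of 36 in complex I, 3 of 4 in complex II and 14 of 17 in complex V. Atp5b had 1174, 1224 and 1239 CPM in TNF libraries and lay below all Fbxl2 siRNA libraries, with a log2 fold change of -0.53 (SE 0.046, edgeR adjusted p = 2.57e-09). Sdhb had 64.5, 65.8 and 68.6 CPM in TNF libraries and also fell by 0.53 (edgeR adjusted p = 1.24e-08), and Uqcrfs1 and Ndufb4 each fell by 0.51 (edgeR adjusted p = 1.55e-08 and 2.18e-07). Sdha was not called, with a log2 fold change of 0.02 (edgeR adjusted p = 0.684).

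Both treated groups were also set against proliferating myoblasts, and in both more subunit genes fell than rose. In TNF over proliferation, 67 of 78 tested genes fell and 3 rose, with a median of -0.42, where 36.5% of all genes tested were called lower and 36.3% higher. Atp5b fell by 0.93, Sdhb by 0.85, Atp5d, the delta subunit of the ATP synthase, by 0.75, Ndufa4 by 0.80 and Uqcr11 by 0.60 on the log2 scale (edgeR adjusted p from 1.56e-13 to 5.01e-09). Atp5s rose by 0.40 and Cox8b by 2.61. In Fbxl2 siRNA over proliferation, 40 genes fell and 11 rose, with a median of -0.14, where 31.1% of all genes were called lower and 30.9% higher. Of the 13 tested genes of complex IV, 5 were lower and 4 higher in this comparison (38.5% and 30.8%), with a median of 0.04. Both shares lie near those of all genes. Complex V had 11 of 17 lower and 3 higher (64.7% and 17.6%), and complex I 17 of 36 lower and 4 higher (47.2% and 11.1%). Complex III had 4 of 8 lower and complex II 3 of 4.

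With Fbxl2 siRNA against proliferation, the largest fall of each complex was -0.69 for Ndufa4, -0.43 for Atp5g3, -0.32 for Sdhb, -0.31 for Cox5a and -0.28 for Uqcr11. Complexes are grouped by gene name here, which places Ndufa4 in complex I. Atp5b fell by 0.40 (edgeR adjusted p = 1.94e-07). The genes that rose included Ndufa3, Ndufa6 and Ndufv3 of complex I, Cox7a2l, Cox7c, Cox8a and Cox8b of complex IV, and Atp5k, Atp5s and Atp5sl of complex V. Ndufv3, an accessory subunit of complex I, rose by 0.34, Atp5s by 0.62 and Atp5sl by 0.39 on the log2 scale. Ndufa3, Ndufa6, Cox8a and Atp5k rose by 0.20, 0.20, 0.20 and 0.18, and Cox7a2l and Cox7c by 0.14 and 0.14. The Atp5k call was lost without Fbxl2 siRNA replicate B (adjusted p = 0.0609). The Cox7c call (edgeR adjusted p = 0.0430) was lost without any TNF replicate, proliferation replicate A or C, control replicate B or C, or Fbxl2 siRNA replicate B, with adjusted p between 0.0502 and 0.255, and with relative log expression factors (0.0676) or DESeq2 (0.0962). Sdhc fell by 0.15, a call lost without Fbxl2 siRNA replicate A (adjusted p = 0.0573), and Sdhd had a log2 fold change of -0.13 that was not called (edgeR adjusted p = 0.0574) but passed without proliferation replicate A (0.00198) or Fbxl2 siRNA replicate B (0.0143), and with relative log expression factors (0.0363) or DESeq2 (0.0406).

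**Figure D4:**
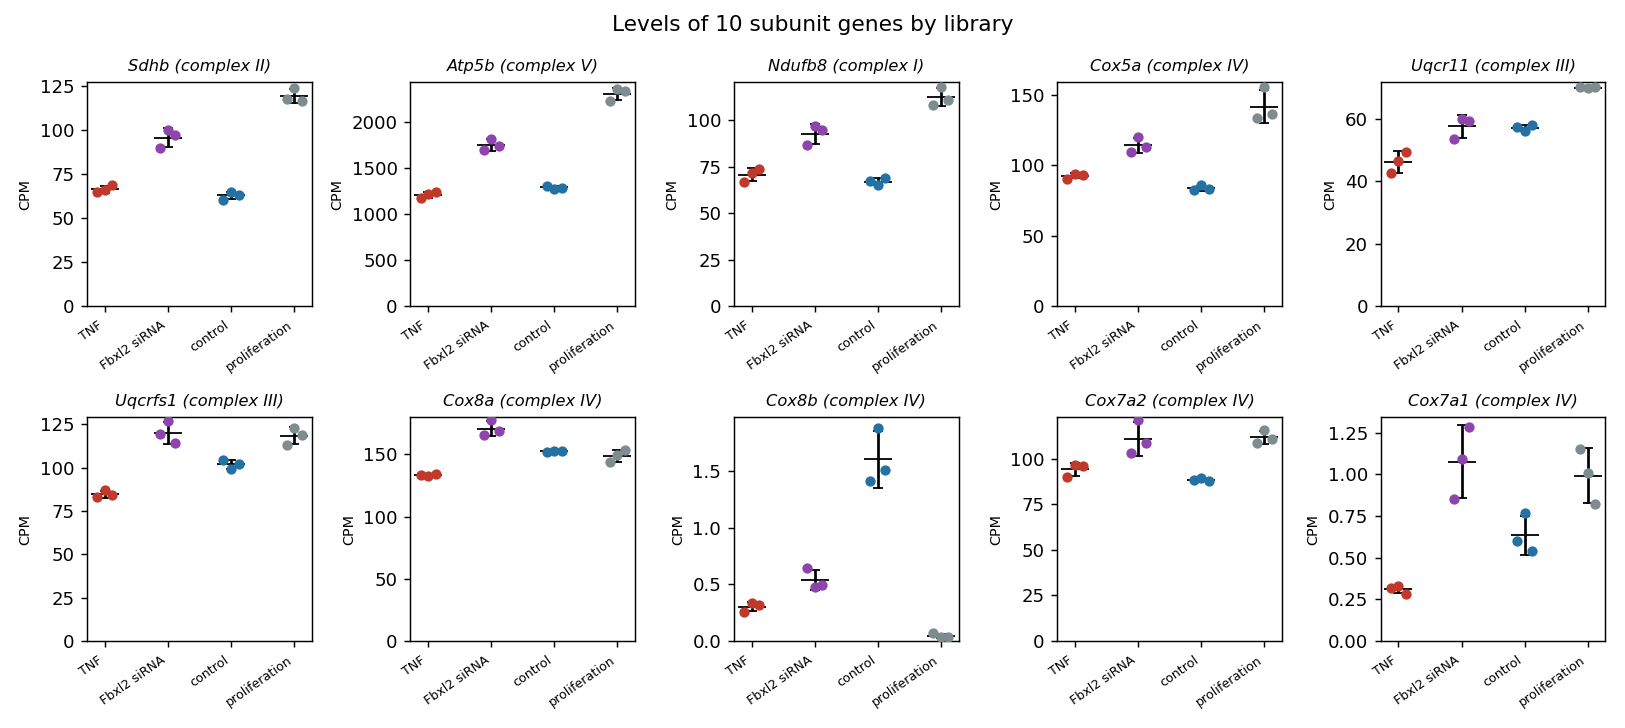
Level in CPM (vertical axes, from 0) of 10 subunit genes in each library of TNF, Fbxl2 siRNA, control and proliferation (points), with bars for the mean and SD of 3 libraries. Sdhb, Atp5b, Ndufb8 and Cox5a are highest in proliferation with Fbxl2 siRNA next, Uqcrfs1 and Uqcr11 are lowest in TNF, and Cox8b is highest in control at a level below 2 CPM.

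Muscle isoforms were scarce beside their widely expressed partners: in control cells Cox8b stood at 4.44 CPM per kilobase of exon and Cox8a at 277 CPM per kb, and Cox7a1 at 1.19 and Cox7a2 at 134 CPM per kb. Cox8b, the heart and muscle form of subunit 8 (chr7:140898945-140900446, minus strand), had 0.256, 0.331 and 0.319 CPM in TNF libraries, 0.639, 0.477 and 0.492 CPM in Fbxl2 siRNA, 1.41, 1.88 and 1.51 CPM in control and 0.0658, 0.0372 and 0.0329 CPM in proliferation. Control libraries were highest and proliferation libraries lowest, with no overlap between any of the 4 groups. The proliferation libraries held 4 counts in all and the control libraries 143, a ratio of 34.9 with a 95% counting interval of 13.3 to 130, which covers counting error only. The fitted log2 fold change of 5.00 (edgeR adjusted p = 1.29e-10) depends on the prior count at this depth. Against control, Cox8b fell by 2.39 with TNF (edgeR adjusted p = 9.73e-08) and by 1.57 with Fbxl2 siRNA (edgeR adjusted p = 5.93e-06) on the log2 scale.

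Between the treatments, Cox8b had 26 counts in TNF and 45 in Fbxl2 siRNA libraries, a depth-scaled ratio of 0.560 with a 95% counting interval of 0.332 to 0.927. That call (edgeR adjusted p = 0.0303) was lost without Fbxl2 siRNA replicate A (adjusted p = 0.126) or TNF replicate A (0.102) or C (0.0531), and with DESeq2 (0.127). The widely expressed Cox8a averaged 133 ± 0.964 CPM in TNF, 171 ± 6.25 CPM in Fbxl2 siRNA, 152 ± 0.258 CPM in control and 149 ± 4.69 CPM in proliferation. It fell by 0.19 with TNF and rose by 0.16 with Fbxl2 siRNA against control on the log2 scale (edgeR adjusted p = 5.95e-04 and 0.00222), and its change of 0.03 with differentiation was not called.

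Cox7a1, the heart and muscle form of subunit 7a (chr7:30184144-30186078, plus strand), had 0.320, 0.331 and 0.283 CPM in TNF libraries, 0.853, 1.09 and 1.29 CPM in Fbxl2 siRNA, 0.599, 0.766 and 0.539 CPM in control and 1.15, 1.01 and 0.822 CPM in proliferation. TNF libraries were lowest with no overlap, and Fbxl2 siRNA and proliferation libraries overlapped. It fell by 1.02 in TNF over control, by 1.77 in TNF over Fbxl2 siRNA and by 1.66 in TNF over proliferation on the log2 scale (edgeR adjusted p = 0.00891, 1.90e-05 and 2.79e-05). Its fall of 0.64 in control over proliferation (edgeR adjusted p = 0.0228) was lost without proliferation replicate A (adjusted p = 0.103), control replicate A (0.0685) or C (0.0825), and with DESeq2 (0.110). Its rise of 0.75 in Fbxl2 siRNA over control (edgeR adjusted p = 0.0107) was lost without Fbxl2 siRNA replicate C (adjusted p = 0.0622) and with DESeq2 (0.0747). The widely expressed Cox7a2 averaged 94.2 ± 3.59 CPM in TNF, 111 ± 9.22 CPM in Fbxl2 siRNA, 88.4 ± 0.780 CPM in control and 112 ± 3.49 CPM in proliferation. Cox7a2 fell by 0.34 with differentiation and rose by 0.33 with Fbxl2 siRNA against control (edgeR adjusted p = 7.93e-06 and 1.88e-05).

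Cox7a2l, which encodes a factor of respiratory supercomplexes, averaged 165 ± 0.322 CPM in TNF, 182 ± 7.79 CPM in Fbxl2 siRNA, 156 ± 2.04 CPM in control and 165 ± 1.84 CPM in proliferation. It was not called with differentiation (log2 fold change -0.08) and rose by 0.23 with Fbxl2 siRNA against control (edgeR adjusted p = 8.93e-05). Cox4i1, Cox6a1 and Cox6b1, the widely expressed forms of their subunits, fell by 0.51, 0.56 and 0.40 with differentiation and rose by 0.23, 0.31 and 0.22 with Fbxl2 siRNA against control on the log2 scale. In TNF over control their log2 fold changes of -0.05, 0.02 and -0.03 were not called. Ndufa4 averaged 121 ± 6.34 CPM in TNF, 130 ± 15.0 CPM in Fbxl2 siRNA, 127 ± 1.97 CPM in control and 210 ± 14.7 CPM in proliferation. Proliferation libraries stood apart from all others, and the 3 groups at 48 h overlapped. Ndufa4 fell by 0.72 with differentiation (edgeR adjusted p = 1.55e-08), and its log2 fold change of 0.03 with Fbxl2 siRNA against control was not called. In TNF over Fbxl2 siRNA its change of -0.11 was not called (edgeR adjusted p = 0.195) but passed without Fbxl2 siRNA replicate A (0.0184).

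The c ring of complex V, which turns as protons pass, is encoded by Atp5g1, Atp5g2 and Atp5g3, whose mature proteins are the same. Atp5g3 averaged 248 ± 2.76 CPM in TNF, 310 ± 20.2 CPM in Fbxl2 siRNA, 247 ± 1.94 CPM in control and 417 ± 34.3 CPM in proliferation. It fell by 0.76 with differentiation and rose by 0.33 with Fbxl2 siRNA against control on the log2 scale (edgeR adjusted p = 9.83e-11 and 3.20e-05). Atp5g1 fell by 0.48 with differentiation (edgeR adjusted p = 3.55e-07). Its change of 0.12 with Fbxl2 siRNA was not called (edgeR adjusted p = 0.106) but passed without TNF replicate A (0.0266), and that of -0.10 with TNF (edgeR adjusted p = 0.183) passed without TNF replicate B (0.0311). Atp5g2 averaged 15.7 to 18.3 CPM in TNF, Fbxl2 siRNA and proliferation and 14.9 CPM in control, and it was called in none of the 6 comparisons. Its change of 0.30 with Fbxl2 siRNA against control (edgeR adjusted p = 0.0546) passed without proliferation replicate A or C, control replicate C, or Fbxl2 siRNA replicate A or C, with adjusted p between 0.0213 and 0.0459, and that of -0.20 with differentiation passed without Fbxl2 siRNA replicate B (0.0467).

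Levels were compared between genes as CPM per kilobase of exon. In proliferation cells Atp5b stood first at 1206 CPM per kb, with Atp5g3 at 576, Uqcrh of complex III at 340, Ndufa4 at 336 and Atp5o, a stalk subunit, at 336 CPM per kb. Median levels per kb in TNF, Fbxl2 siRNA, control and proliferation were 44.4, 52.6, 46.3 and 59.5 for complex I, and 71.0, 83.2, 72.4 and 101 for complex II. They were 87.3, 113, 96.2 and 120 for complex III, 143, 159, 130 and 144 for complex IV, and 127, 167, 125 and 178 for complex V. The SD of log2 level per kb among tested genes in control cells was 0.893 in complex I and 0.569 in complex II. It was 1.04 in complex III, 2.31 in complex IV and 1.92 in complex V. The widths of the last 2 include the scarce Cox7a1, Cox8b and Atp5s, so these SDs do not rank the complexes by how alike their genes were. Apart from Cox7a1 and Cox8b, the tested complex IV genes lay between 83.1 and 277 CPM per kb in control cells.

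Summed CPM had its highest mean in proliferation, then Fbxl2 siRNA, control and TNF in each of the 5 complexes. In the medians per kb of complex IV, by contrast, Fbxl2 siRNA stood first, and TNF stood above control in complexes IV and V. In the sums, all TNF libraries lay below all control libraries only in complex III (673, 710 and 698 against 735, 730 and 739 CPM). In complexes I and IV, TNF replicate A lay below every control library, while TNF replicates B and C lay above them all. Complex V stood at 62.5% of proliferation in TNF, 80.9% in Fbxl2 siRNA and 63.0% in control. Complex III stood at 70.0%, 91.4% and 74.1% in the same groups, and complex I at 80.1%, 90.9% and 80.5%. Complex IV stood at 79.5%, 96.4% and 79.7%, and complex II at 77.8%, 86.8% and 78.7%. These sums are dominated by the most abundant genes and carry no test.

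Transcripts of the 13 subunits encoded in mtDNA were higher at 48 h than in proliferating cells, and lower with Fbxl2 siRNA than in control. Their summed level averaged 15815 ± 1415 CPM in TNF, 12977 ± 927 CPM in Fbxl2 siRNA, 16869 ± 209 CPM in control and 7316 ± 120 CPM in proliferation (SD, n = 3 each), so TNF stood at 216% of proliferation, Fbxl2 siRNA at 177% and control at 231%. In control over proliferation 12 of 13 rose and 1 fell, with a median log2 fold change of 1.45. As shares, 92.3% rose and 7.69% fell, against 38.4% and 38.9% of all genes tested. mt-Co1, the catalytic subunit of complex IV, had 5129, 5188 and 5202 CPM in control libraries, against 1667, 1405 and 1533 CPM in proliferation libraries. All control libraries were far above, with a log2 fold change of 1.75 (edgeR adjusted p = 8.49e-16), and mt-Nd5 and mt-Nd4l of complex I rose by 1.97 and 1.82. mt-Nd3 fell by 0.98 on the log2 scale.

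In Fbxl2 siRNA over control, 9 of the 13 mtDNA-encoded subunits fell and 1 rose, with a median of -0.37. As shares, 69.2% fell and 7.69% rose, against 29.8% and 34.1% of all genes tested. mt-Co1 had 3813, 3590 and 3346 CPM in Fbxl2 siRNA libraries, all below control, and fell by 0.53 (edgeR adjusted p = 2.09e-07), mt-Nd4 fell by 0.64 and mt-Nd4l by 0.57, and mt-Nd3 rose by 0.47. In TNF over control 4 fell and 1 rose, with mt-Nd5 and mt-Nd6 each lower by 0.31 (log2 fold change -0.31). Here 30.8% fell and 7.69% rose, against 23.6% and 31% of all genes, so the share that fell lies near the background. The summed level of TNF replicate A, 17449 CPM, lay above every control library, while replicates B and C (14965 and 15032 CPM) lay below them all. In TNF over Fbxl2 siRNA 9 of the 13 rose (69.2%, against 29.9% of all genes), with a median of 0.24. Genes on mtDNA lie end to end and have copies in the nucleus, so the counting can split their reads. Whether the nuclear-encoded and mtDNA-encoded sets are related was not tested.

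Genes that serve the chain without being named by the rule were counted from lists. Of 20 other chain components, such as cytochrome c and enzymes of ubiquinone synthesis, 16 fell and 2 rose in control over proliferation, 3 fell and 3 rose in TNF over control, and 15 rose and 2 fell in Fbxl2 siRNA over control. As shares, 80% fell in the first (38.9% of all genes), 15% fell in the second (23.6%) and 75% rose in the third (34.1%). Cyc1, the cytochrome c1 subunit of complex III, averaged 108 CPM in control and 176 CPM in proliferation, a log2 fold change of -0.71, and Pdss1 of ubiquinone synthesis fell by 1.61. With TNF against control, Higd1a, a hypoxia-inducible membrane protein, rose by 0.49 and Higd2a, its complex IV-binding relative, fell by 0.44. With Fbxl2 siRNA, Higd1a rose by 0.77 and Coq3 of ubiquinone synthesis by 0.54.

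Of 46 tested assembly factors, which build the complexes without remaining in them, 24 fell and 10 rose in control over proliferation, 9 fell and 4 rose in TNF over control, and 18 rose and 2 fell in Fbxl2 siRNA over control. As shares, 52.2% fell and 21.7% rose in the first, against 38.9% and 38.4% of all genes. In the second 19.6% fell and 8.7% rose, against 23.6% and 31%, so both shares lie below the background. In the third 39.1% rose, near the 34.1% of all genes, but 4.35% fell against 29.8%. The median there was 0.10 against 0.03 for all genes. The complex I factors Ndufaf5 and Acad9 fell by 1.12 and 0.53 with differentiation. Tmem70, a complex V factor, rose by 0.33 and Ttc19, a complex III factor, fell by 0.32 with TNF. Uqcc2 and Cox20, factors for complexes III and IV, rose by 0.52 and 0.67 with Fbxl2 siRNA.

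Known nuclear regulators of these genes were read in the same libraries. Ppargc1a, a coactivator of mitochondrial biogenesis, had 0.576, 0.699 and 0.567 CPM in TNF libraries, 1.95, 2.01 and 2.38 CPM in Fbxl2 siRNA, 1.71, 0.975 and 1.37 CPM in control and 2.73, 2.90 and 2.63 CPM in proliferation. The groups did not overlap and were in the order proliferation, Fbxl2 siRNA, control and TNF. It fell by 1.01 in control over proliferation and by 1.15 in TNF over control, and rose by 0.63 in Fbxl2 siRNA over control (edgeR adjusted p = 3.09e-05, 2.94e-04 and 0.00603), and was not called in Fbxl2 siRNA over proliferation (edgeR adjusted p = 0.0542). Esrra, which encodes an estrogen-related receptor, changed by -0.46, -0.27 and 0.25 in these 3 comparisons, each called (edgeR adjusted p = 1.03e-06, 0.00152 and 0.00178). Nrf1 fell by 0.38 with differentiation and rose by 0.14 with TNF, and was not called with Fbxl2 siRNA. Tfam, an mtDNA transcription and packaging factor, fell by 0.59 with differentiation and was not called in either treatment. Gabpa fell by 0.15 with TNF and was called in neither of the other 2 comparisons.

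Over the 15 regulators tested, 8 fell and 2 rose in control over proliferation, 4 fell and 5 rose in TNF over control, and 4 rose and 2 fell in Fbxl2 siRNA over control. In control over proliferation these are 53.3% lower and 13.3% higher, against 38.9% and 38.4% of all genes. In TNF over control they are 26.7% lower and 33.3% higher, against 23.6% and 31%. In Fbxl2 siRNA over control they are 26.7% higher and 13.3% lower, against 34.1% and 29.8%. Neither of the last 2 comparisons held a share far above the background. Pprc1, a coactivator related to Ppargc1a, rose by 0.49 with differentiation. Ppard, a nuclear receptor, and Hif1a, the oxygen-regulated factor, rose by 0.35 and 0.25 with TNF, and Hif1a rose by 0.42 with Fbxl2 siRNA.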

How the data were processed

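RNA was measured by sequencing in 12 libraries of 4 groups. The authors deposited whole-number read counts per gene symbol, which were used as deposited. CASAVA, DESeq2 and the mm10 build appear, without versions, in the submitters' processing notes, and an aligner, counter, strand setting or annotation is not given in the sources used here. Reads of overlapping or near-identical genes may therefore be split. The authors' tables of comparisons were not used.

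Counts were analysed with edgeR 4.0.16 and limma 3.58.1 under R 4.3.3. filterByExpr kept 12736 genes, libraries were scaled by TMM, and all 12 libraries entered a robust quasi-likelihood fit of 4 group means, which left 8 residual degrees of freedom. Contrasts were tested with glmQLFTest, Benjamini-Hochberg adjustment over all 12736 genes, and a call at adjusted p under 0.05. The median biological coefficient of variation was 0.048. CPM use totals times TMM factors and are given as mean ± SD. SE is the absolute log2 fold change over the square root of F. Counting intervals and floors (3 counts) cover counting error only. DESeq2 1.42.0, other scalings, no filter, a replicate block and leaving out each library were alternatives. The fit was tested on simulated data.

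Replicates differed beyond sampling, with a chi-square per degree of freedom of 1.62 to 22.2 and correlations of log2 CPM of 0.9937 to 0.9958. Coordinates and exon lengths come from GENCODE M21 (GRCm38), matched by symbol for 80 of 81 genes, and promoters from RefSeq.

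Members and lists were chosen with earlier results of these data known. Genes were named by rule: subunit isoforms and Sdha to Sdhd, and in each comparison the called gene of each complex with the largest rise and fall, the 3 with the smallest adjusted p and any opposed to its complex's majority; of other lists the 2 with the smallest adjusted p, and Ppargc1a, Esrra, Nrf1, Gabpa and Tfam. Uqcrh, Atp5o and the genes called in TNF over control were named after their values were seen. Lists of 8 cell types and 7 pathways were counted, and list names absent from the table were left out. Values of some single genes that this rule names are not reported here, though they are in the counts and sums.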

Additional observations from a re-analysis of the deposited data

How the results depend on the processing

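Results were recomputed under 17 alternatives: relative log expression factors, library totals, no filter on low counts, a replicate block, DESeq2 and each of the 12 libraries left out. No called value changed sign. Of the uncalled values of named genes, 11 changed sign in at least 1 alternative (largest log2 fold change as reported 0.11), and so did the median of TNF over control, from -0.0245 to 0.0178 when a library was left out and above 0 only without TNF replicate A. Of 135 values for named genes, 108 were called, and 97 of these in every alternative; over 2295 recomputed values 2232 kept their side of the threshold, 47 lost a call and 16 gained one. In TNF over control, library totals gave 23 subunit genes called in place of 15, with 22 lower in place of 12 and a median of -0.0670. The number called higher there, 3, became 1 with library totals, with no filter and with DESeq2, 5 with the replicate block, and 1 to 5 when a library was left out. The number called lower in Fbxl2 siRNA over control, 3, was 1 to 3 when a library was left out. The median of control over proliferation was -0.3793 with library totals, -0.3765 with no filter and -0.4297 to -0.3800 when a library was left out, against -0.4054. The other counts of calls stayed within 1.5 times of those given. The causes were not tested beyond what each alternative changes.

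Replicate letters did not pair the libraries across all comparisons: same-letter correlations of deviations from group means ran from -0.0957 to 0.183 over 18 pairs, and 7 of the 18 matched their own letter best. In Fbxl2 siRNA over proliferation each letter matched itself best, with low correlations of 0.124 for A, 0.115 for B and 0.0638 for C. With the replicate block Atp5g2 was called in Fbxl2 siRNA over control (adjusted p = 0.0389) and Sdhd in Fbxl2 siRNA over proliferation (0.0175). It gave 64 genes called in control over proliferation, 18 in TNF over control and 66 in Fbxl2 siRNA over control, against 63, 15 and 65. Depth limited Cox8b, Cox7a1 and the 3 genes below the filter, where 3 counts in a library correspond to 0.0899 to 0.113 CPM.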

Other observations

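Enzymes of the tricarboxylic acid cycle, which feeds NADH and succinate to the chain, were measured beside the subunits. Of 13 enzymes, 12 fell in control over proliferation (median log2 fold change -0.44) and 9 rose in Fbxl2 siRNA over control (median 0.24). In TNF over control 3 fell and 2 rose. As shares, 92.3% fell in the first (38.9% of all genes tested) and 69.2% rose in the second (34.1%). With TNF 23.1% fell and 15.4% rose, against 23.6% and 31% of all genes, so neither share lies above the background. Cs, citrate synthase, averaged 349 CPM in control and 579 CPM in proliferation (log2 fold change -0.73, edgeR adjusted p = 1.83e-12), and Idh3a, a subunit of the NAD-linked isocitrate dehydrogenase, fell by 0.87. With Fbxl2 siRNA, Cs rose by 0.51 and Ogdh by 0.36 on the log2 scale. With TNF, Suclg2, a subunit of succinyl-CoA ligase, rose by 0.33. All 13 genes of the outer membrane and protein import list fell with differentiation, where the matrix chaperones Hspd1 and Hspa9 fell by 1.04 and 0.93. In Fbxl2 siRNA over control 12 of the 13 rose, with Timm50, an import receptor, higher by 0.66 and Hspd1 by 0.44. In TNF over control 5 rose, with Hspd1 higher by 0.34 and Hspa9 by 0.22. As shares of this list, 100% fell with differentiation (38.9% of all genes) and 92.3% rose with Fbxl2 siRNA (34.1%). With TNF 38.5% rose and 0% fell, against 31% and 23.6% of all genes, so the share that rose lies near the background.

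Glycolysis genes were read in the same way. Of 17 genes, 15 fell and 2 rose in control over proliferation, 14 rose and 3 fell in Fbxl2 siRNA over control, and 11 rose and 3 fell in TNF over control. As shares, 88.2% fell in the first (38.9% of all genes tested), 82.4% rose in the second (34.1%) and 64.7% rose in the third (31%). Ldha, lactate dehydrogenase A, averaged 749 CPM in TNF, 984 CPM in Fbxl2 siRNA, 435 CPM in control and 1100 CPM in proliferation, with log2 fold changes of 0.78 in TNF over control, 1.18 in Fbxl2 siRNA over control and -1.34 in control over proliferation (edgeR adjusted p = 6.17e-10, 1.44e-12 and 3.93e-14). Pfkl, liver-type phosphofructokinase, rose by 0.71 with TNF and by 0.83 with Fbxl2 siRNA against control. Eno3, muscle enolase, fell by 1.03 in control over proliferation. Whether the glycolysis and subunit genes differ in their response to TNF was not tested.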
